A study of Arabidopsis thaliana with 6 samples.

Results

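The core circadian clock genes described here are *CCA1* (AT2G46830), *LHY* (AT1G01060), *RVE8* (AT3G09600), *PRR9* (AT2G46790), *PRR7* (AT5G02810), *PRR5* (AT5G24470), *TOC1* (AT5G61380), *GI* (AT1G22770), *ELF4* (AT2G40080) and *LUX* (AT3G46640). They were chosen by locus for their known place in the plant clock, and all 10 were measured among the 27827 probe sets of the Affymetrix Arabidopsis Gene 1.0 ST array. RNA came from whole *Arabidopsis thaliana* seedlings of 17 days, either wildtype Col-0 or the T-DNA insertion line *naa20-1* (SALK_027687, written *naa20*), in which the catalytic subunit of the N-terminal acetyltransferase complex NatB is depleted. Both genotypes grew in short days with 8.5 h of light on 1xMS medium and were moved at day 2 to medium with 2 mM of the reductant DTT for 15 more days. There were 3 arrays per genotype, each described in the sample labels as a pool of at least 10 seedlings, whereas a supplementary legend speaks of individual plants. *naa20* is a single insertion line, and no array of untreated seedlings was used, so the values describe the genotypes under DTT and not the response to it. Seedlings without DTT were not analysed here. The hour of harvest is not given in the sources used here, so no level can be placed within the day.

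The plant clock is a set of genes that repress and activate each other in turn over the day. The MYB factors *CCA1* and *LHY* are expressed around dawn and repress evening genes, while *RVE8*, a related MYB factor, activates evening genes. The pseudo-response regulators *PRR9*, *PRR7*, *PRR5* and *TOC1* follow in that order through the day and repress *CCA1* and *LHY*. *ELF4* and *LUX* belong with *ELF3* to the evening complex, a night-time repressor of *PRR9* and other genes, and GI holds the F-box protein ZTL, which targets TOC1 and PRR5 for degradation. In leaves the clock times photosynthesis genes, growth and flowering.

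The deposited values were log2 signals, quantile-normalized so that every array spans the same range from 1.75 to 14.58 with a median of 6.12. A difference of 1 on this scale is 2-fold, and differences are *naa20* minus wildtype throughout. The targeted *NAA20* transcript (AT1G03150) was lower on every *naa20* array than on any wildtype array, and the genotypes differed by -1.38 on the log2 scale, with a standard error of 0.16 and an adjusted p of 0.000689 in limma. Markers of the organs of a seedling differed between the genotypes as well. Of 6 leaf markers 5 were lower in *naa20* with an adjusted p under 0.05 in limma, a limit that 33.9% of all probe sets passed in either direction. The light-harvesting gene *LHCA1* was lowest (-1.25) and alone past 2-fold. Its mean signals of 4.41 in *naa20* and 5.66 in wildtype lay below the array median, unlike those of the other leaf markers. The summed log2 signal of the leaf list was 65.28 to 66.97 in *naa20* and 69.86 to 70.07 in wildtype. The other leaf marker, *RBCS1A*, had the same signal of 14.18 on all arrays, near the upper end of the range. With quantile-normalized values this means an equal rank on every array, and it says little about the amount of the transcript. Of 8 root markers 7 were lower at the same limit (33.9% of all probe sets), with sums of 46.00 to 50.68 in *naa20* and 61.99 to 64.36 in wildtype, and *SHR* was the exception, with a difference of 0.01. Past 2-fold as well were *EXPA18*, the lowest with -4.08, *COBL9*, *EXPA7*, *CASP1*, *PHO1* and *NRT2.1*. No marker can be called absent, since the files carry no detection calls. In RNA of whole seedlings fewer cells of a type and less RNA per cell cannot be told apart, and the part of organ proportions in the values of the clock genes was not tested.

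None of the 10 clock genes reached an adjusted p under 0.05 together with a 2-fold difference between the genotypes in limma, against 9.92% of all probe sets. The count was 0 with an ordinary variance per gene as well, where 2481 of 27827 probe sets passed both limits. It was also 0 with unadjusted p under 0.05 at 2-fold, while 3 genes had an unadjusted p under 0.05 at any fold. The shares of all probe sets at these unadjusted limits were not counted. They are at least the 9.92% (2-fold) and 33.9% (any fold) that passed with the adjusted p. Without the fold limit 2 of the 10, *TOC1* and *ELF4*, passed an adjusted p of 0.05, against 33.9% of all probe sets, and both were higher in *naa20*. The 3 arrays of *naa20* lay apart from the 3 of wildtype for 3 of the 10, *PRR5*, *TOC1* and *ELF4*, against 47.5% of all probe sets. The median log2 difference of the 10 was -0.05, where it was -0.00 over all probe sets, with 4 higher and 6 lower in *naa20*. For most of the 10 genes arrays of the same genotype differed by more than the genotypes did, and *PRR9* and *GI* had the widest spread. On the third array of each genotype *PRR9* was 3.38-fold (*naa20*) and 4.45-fold (wildtype) below the mean of the other 2 arrays, and *GI* was 2.76-fold and 2.28-fold above it.

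**Figure D1:**
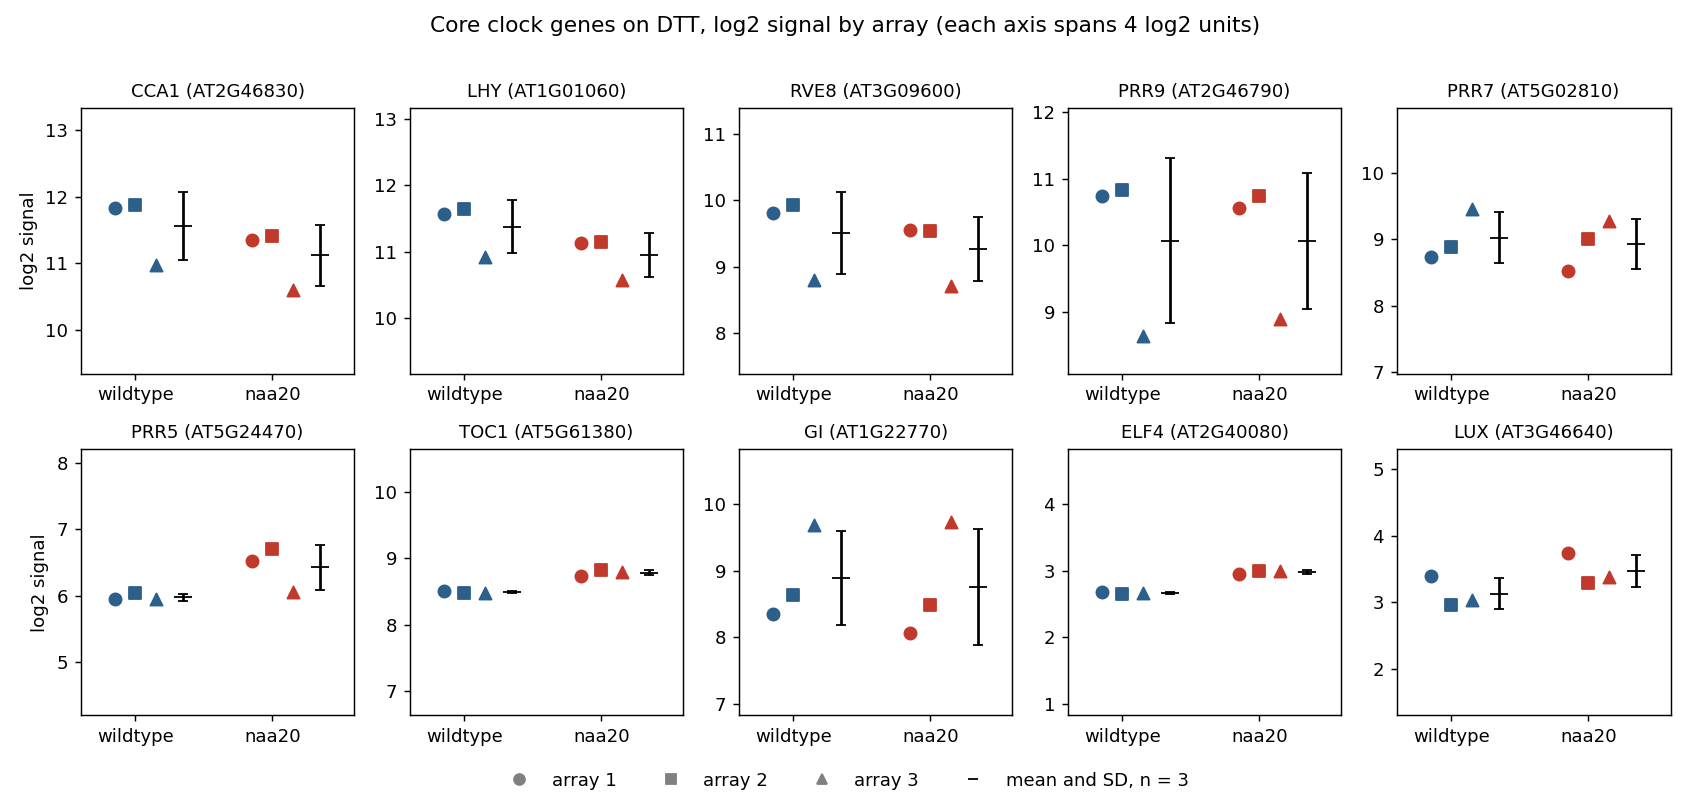
Log2 signal of the 10 core clock genes on the 3 wildtype (blue) and 3 *naa20* (red) arrays, with circles, squares and triangles for arrays 1, 2 and 3 and the mean ± SD (n = 3) in black. Every axis spans the same log2 range around its own centre, so distances can be compared between genes but heights cannot. The triangles of *CCA1*, *LHY*, *RVE8* and *PRR9* lie below and those of *PRR7* and *GI* above the other arrays in both genotypes.

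Arrays of equal replicate number deviated together from their genotype means, mostly through the third arrays, although neither labels nor methods say what a number shares. A fit with the number as a block compares arrays of equal number. With it 4 of the 10 genes passed an adjusted p of 0.05 at any fold in limma, against 35.3% of all probe sets, namely *CCA1* and *LHY* as lower and *ELF4* and *LUX* as higher in *naa20*. With the third arrays left out, a setting added after the values were seen, 3 passed (*CCA1*, *LHY* and *PRR5*), against 32.4% of all probe sets.

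The dawn gene *CCA1* had log2 signals of 11.34, 11.41 and 10.59 on *naa20* arrays 1, 2 and 3 and of 11.83, 11.87 and 10.97 on those of wildtype. The first and second *naa20* arrays lay above the third wildtype array, so the genotypes overlapped. Between arrays of equal number the difference was -0.49, -0.46 and -0.37. The mean difference of *CCA1* was -0.44 ± 0.30 (standard error, 0.737 of the wildtype signal; 95% interval -1.16 to 0.28; adjusted p = 0.324 from limma), and with the replicate block the same difference had a standard error of 0.09 and an adjusted p of 0.0141 from limma. Its paralogue *LHY* showed the same order of arrays, with 11.13, 11.14 and 10.57 in *naa20* and 11.56, 11.64 and 10.92 in wildtype. *LHY* differed by -0.43 ± 0.23 (standard error; adjusted p = 0.214 from limma), with an adjusted p of 0.0165 with the block and of 0.0436 without the third wildtype array. For both genes every *naa20* array was lower than the wildtype array of its number. The size of the mean difference changed when the third array of a single genotype was left out. Without that of *naa20* it was -0.18 for *CCA1* and -0.24 for *LHY*, and without that of wildtype -0.73 and -0.65. *CCA1* was also -0.28 without the second wildtype array. In the fit without the third arrays *CCA1* differed by -0.47 (adjusted p = 0.0174 from limma) and *LHY* by -0.47 (adjusted p = 0.0184 from limma).

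*RVE8* had signals of 9.54, 9.54 and 8.72 in *naa20* and of 9.80, 9.92 and 8.80 in wildtype. Its arrays of equal number differed by -0.26, -0.38 and -0.09, again all in one direction. The mean difference was -0.24 ± 0.34 (standard error; adjusted p = 0.646 from limma). With the replicate block the adjusted p was 0.121 and the 95% interval ran from -0.49 to 0.01. Without the third *naa20* array the *RVE8* difference was 0.03.

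Among the pseudo-response regulators, *PRR9*, the first of the day to be expressed, had signals of 10.56, 10.74 and 8.89 in *naa20* and 10.74, 10.83 and 8.63 in wildtype. The third arrays lay far below the others, and no order of the genotypes was visible. The log2 difference was -0.00 ± 0.70 (standard error; adjusted p = 0.997 from limma), and with the block the 95% interval ran from -0.30 to 0.29, which leaves room for differences of that size. *PRR7*, which follows *PRR9*, had signals of 8.52, 9.00 and 9.27 in *naa20* and 8.73, 8.88 and 9.45 in wildtype. Here the third arrays were the highest of their genotypes. The *PRR7* difference was -0.09 ± 0.24 (standard error; adjusted p = 0.815 from limma), with a 95% interval of -0.36 to 0.17 under the block. Leaving out single arrays turned the sign of both genes.

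*PRR5*, expressed after *PRR7*, had signals of 6.52, 6.71 and 6.05 in *naa20* and 5.94, 6.03 and 5.94 in wildtype. All *naa20* arrays lay above all wildtype arrays, the third by the least, at 6.05 against a highest wildtype value of 6.03. The *PRR5* difference was 0.45 ± 0.17 (standard error, 1.37 times the wildtype signal; adjusted p = 0.0759 from limma), and 0.0511 with the block. It was 0.64 (adjusted p = 0.00589 from limma) without the third *naa20* array and 0.62 (adjusted p = 0.0118 from limma) without the third arrays of both genotypes.

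The evening gene *TOC1* had signals of 8.74, 8.82 and 8.79 in *naa20* and 8.51, 8.47 and 8.48 in wildtype. This was the tightest grouping among the genes above the lower end of the array, with SDs of 0.04 and 0.02 (n = 3), and the genotypes did not overlap. The *TOC1* difference was 0.29 ± 0.08 (standard error, 1.22 times the wildtype signal; adjusted p = 0.0265 from limma). In an exact two-sided permutation test it had p = 0.1, the smallest that 3 arrays against 3 allow. With the block the adjusted p was 0.052 from limma, and with any 1 of the 6 arrays left out it lay between 0.056 and 0.0843, so the call did not hold without any one of them. Unlike *PRR9* or *GI*, *TOC1* did not move on the third arrays, which differed from the mean of the others by 0.01 in *naa20* and -0.01 in wildtype.

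*GI* had signals of 8.07, 8.48 and 9.74 in *naa20* and 8.36, 8.64 and 9.69 in wildtype. The third arrays were highest, and the genotypes overlapped fully. The *GI* difference was -0.13 ± 0.49 (standard error; adjusted p = 0.874 from limma), and under the block its 95% interval ran from -0.39 to 0.13. It turned to 0.22, 0.01 and 0.27 without the first *naa20*, the second *naa20* or the third wildtype array.

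The 2 evening complex genes among the 10 had low signals. *ELF4* lay between 2.65 and 3.00 and *LUX* between 2.96 and 3.73, both with mean signals in the lowest 25% of probe sets, below or around the 25th percentile of 3.72. Whether they were above background on these arrays is not known. *ELF4* had signals of 2.95, 3.00 and 3.00 in *naa20* and 2.69, 2.65 and 2.67 in wildtype, without overlap and with SDs of 0.03 and 0.02 (n = 3). Its difference was 0.32 ± 0.08 (standard error; adjusted p = 0.0185 from limma), and 0.0397 with the block, but 0.0503, 0.0549 and 0.0655 without the second *naa20*, the first wildtype or the second wildtype array, and 0.0629 without the third arrays. *LUX* had signals of 3.73, 3.29 and 3.38 in *naa20* and 3.40, 2.96 and 3.03 in wildtype, the first array being the highest in both genotypes. The *LUX* arrays of equal number differed by 0.34, 0.32 and 0.35, while the mean difference was 0.34 ± 0.16 (standard error; adjusted p = 0.162 from limma), with an adjusted p of 0.0308 under the block.

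**Figure D2:**
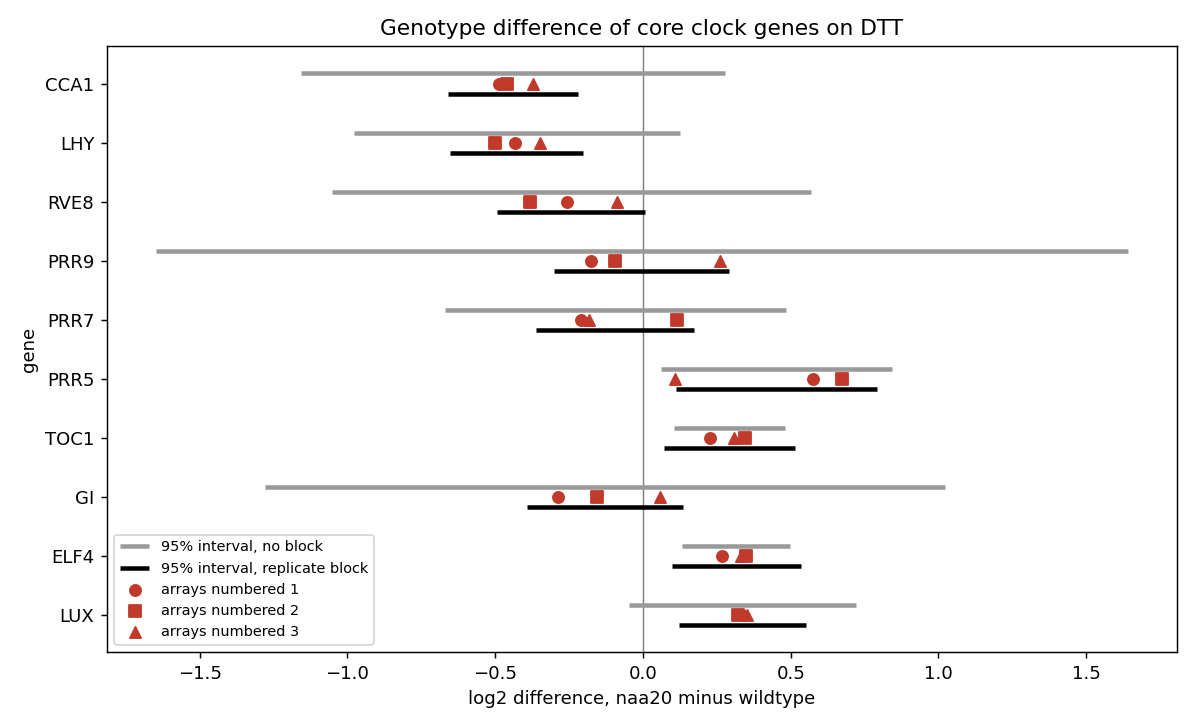
Log2 difference of each core clock gene between *naa20* and wildtype, with red symbols for arrays of equal number, grey bars for the 95% interval of the fit without the replicate number and black bars for that with the number as a block. The black bars of *CCA1* and *LHY* lie below 0 and those of *PRR5*, *TOC1*, *ELF4* and *LUX* above 0 (adjusted p of *PRR5* 0.0511 and of *TOC1* 0.052), and those of *RVE8*, *PRR9*, *PRR7* and *GI* include 0.

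The profiles of the 10 genes were compared with each other by the root mean square difference of log2 signals over the 6 arrays, after each profile was centred on its own mean. *TOC1* and *ELF4* were nearest (0.02), both flat within a genotype and higher in *naa20*. *CCA1* and *LHY* followed with 0.10, *CCA1* and *RVE8* with 0.12 and *LHY* and *RVE8* with 0.18, so that the MYB genes had similar profiles. Outside the gene lists used here, the probe sets nearest to *CCA1* by this measure were AT5G11460 (0.07), *SPA3* (AT3G15354, 0.08), *EXPA11* (AT1G20190, 0.08), AT1G68490 (0.09) and *NF-YA1* (AT5G12840, 0.10). SPA3 acts in light signalling with the ubiquitin ligase COP1, EXPA11 is an expansin and NF-YA1 a subunit of a CCAAT-binding factor. Those nearest to *GI* lay farther off, with 0.19 for AT5G24080 and for *ATDUF1* (AT1G03300) and 0.21 for *ELIP1* (AT3G22840), an early light-induced protein of the thylakoid, *TBL26* (AT4G01080) and *KCS19* (AT5G04530). With 6 arrays such likeness is a description only.

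The third array of each genotype was set against its other 2, without a test, since it is 1 array against 2 and the comparison was chosen with earlier results of these data known. For 6 of the 10 genes the third array lay outside the other 2 on the same side in both genotypes, against 33.7% of all probe sets. It was below for *CCA1*, *LHY*, *RVE8* and *PRR9* and above for *PRR7* and *GI*. In *naa20* the third array differed from the mean of the others by -0.78 for *CCA1*, -0.56 for *LHY*, -0.83 for *RVE8*, -1.76 for *PRR9*, 0.51 for *PRR7* and 1.47 for *GI*. In wildtype the same differences were -0.88, -0.68, -1.06, -2.15, 0.65 and 1.19. That the signs are equal in both genotypes follows from how these 6 genes were picked. The median size of this deviation over all probe sets was 0.15 in either genotype.

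An array 3 at least 2-fold lower in both genotypes was found for 0.266% of all probe sets and, of the 10, for *PRR9*. One at least 2-fold higher in both was found for 0.298% and, of the 10, for *GI*. Ordered by the smaller of the 2 deviations, *PRR9* took place 21 among the lower probe sets and *GI* place 51 among the higher ones. *RVE8* was past the limit in wildtype (2.08-fold) and short of it in *naa20* (1.77-fold). *PRR5* deviated in *naa20* alone (-0.56, against -0.04 in wildtype), and *TOC1*, *ELF4* and *LUX* deviated by at most 0.15. The first and second arrays of a genotype differed far less for the dawn genes, by 0.07 and 0.04 for *CCA1* and 0.01 and 0.08 for *LHY* in *naa20* and wildtype. They differed more for *PRR7* in *naa20* (0.48) and for *GI* (0.41 and 0.28), where the second array was the higher, and for *LUX* (0.45 and 0.43), where it was the lower.

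**Figure D3:**
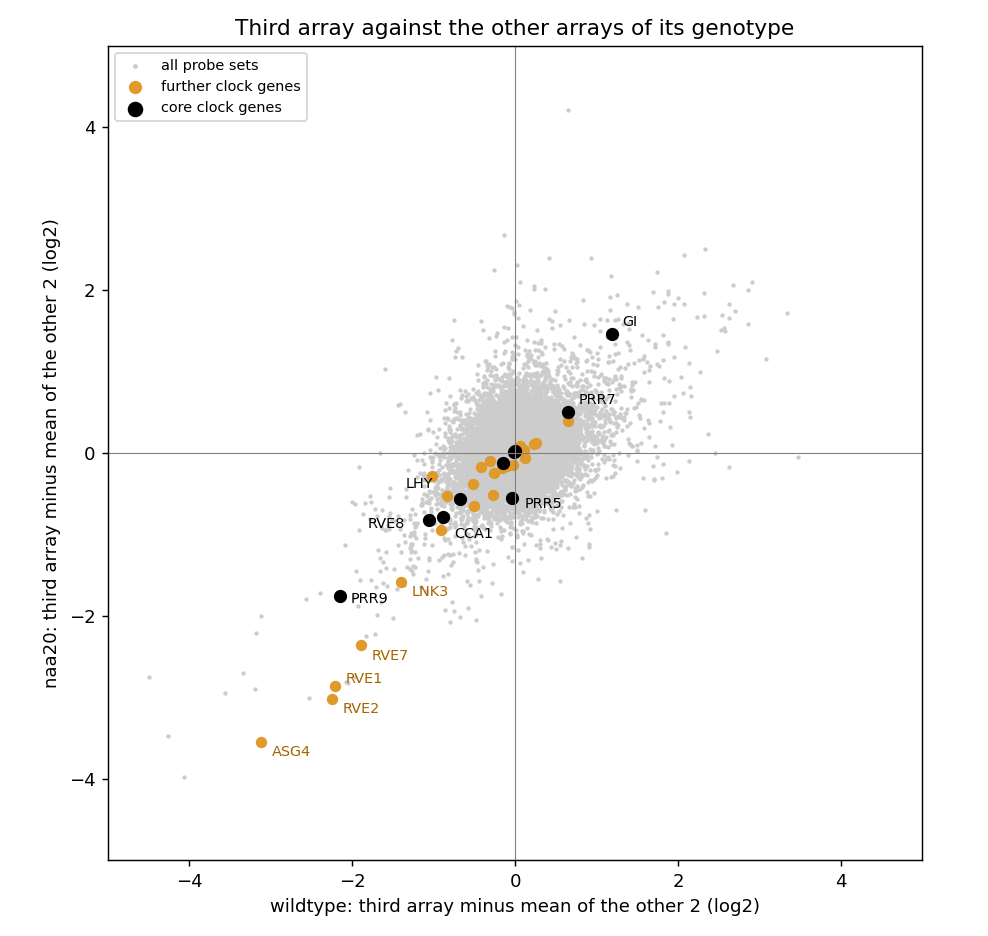
Log2 signal on array 3 minus the mean of the other 2 arrays, wildtype on the horizontal and *naa20* on the vertical axis, for all 27827 probe sets (grey), 23 further clock genes (orange) and the 10 core clock genes (black). *PRR9* at -2.15 and -1.76 and *GI* at 1.19 and 1.47 lie outside the main cloud, while *TOC1*, *ELF4* and *LUX* lie near 0.

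A list of 23 further clock genes was compared in the same way. It holds *ELF3*, *PRR3*, *BOA*, *CHE* and *JMJD5*, MYB genes of the *CCA1* and *RVE* family, the *LNK* genes that act as coactivators with RVE8, F-box genes of the *ZTL* family and others. None passed an adjusted p of 0.05 with a 2-fold difference in limma (9.92% of all probe sets did), and 3 passed at any fold (33.9%), all lower in *naa20*. These 3, named after their values were seen, were *LNK1* with -0.64 ± 0.13 (standard error; adjusted p = 0.00943 from limma), *LNK2* with -0.58 ± 0.18 (adjusted p = 0.0459) and *ZTL* with -0.30 ± 0.08 (adjusted p = 0.027). *LNK1* passed with any 1 array left out (adjusted p up to 0.0386), whereas *LNK2* reached 0.14 and *ZTL* 0.0821. Over the 23 genes the median difference was -0.39, with 17 lower and 6 higher. The highest was *FKF1* with 0.19, at a low signal, and the lowest *RVE7* with -1.05 (adjusted p = 0.346 from limma). The *RVE7* difference was -0.26 without the third *naa20* array, -0.69 without the second wildtype array and -1.68 without the third wildtype array.

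With the replicate number as a block 11 of the 23 had an adjusted p under 0.05 in limma, against 35.3% of all probe sets, and all 11 were lower in *naa20*. They were *RVE1*, *RVE4*, *RVE7*, AT5G52660, *ASG4*, *LNK1*, *LNK2*, *LNK3*, *LNK4*, *ZTL* and *JMJD5*. *RVE7* was also past the 2-fold limit (adjusted p = 0.00259 with the block), as the only one of the list. Of all 27827 probe sets 2809 passed both limits with the block. Without the third arrays 8 of the 23 passed at any fold, against 32.4% of all probe sets. On arrays 1, 2 and 3 *RVE7* had signals of 7.62, 7.82 and 5.36 in *naa20* and 8.53, 8.70 and 6.72 in wildtype, so that both genotypes dropped on the third array and *naa20* lay below wildtype at each number. *ELF3*, the partner of *ELF4* and *LUX*, differed by 0.16 ± 0.12 (standard error; adjusted p = 0.345 from limma).

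**Figure D4:**
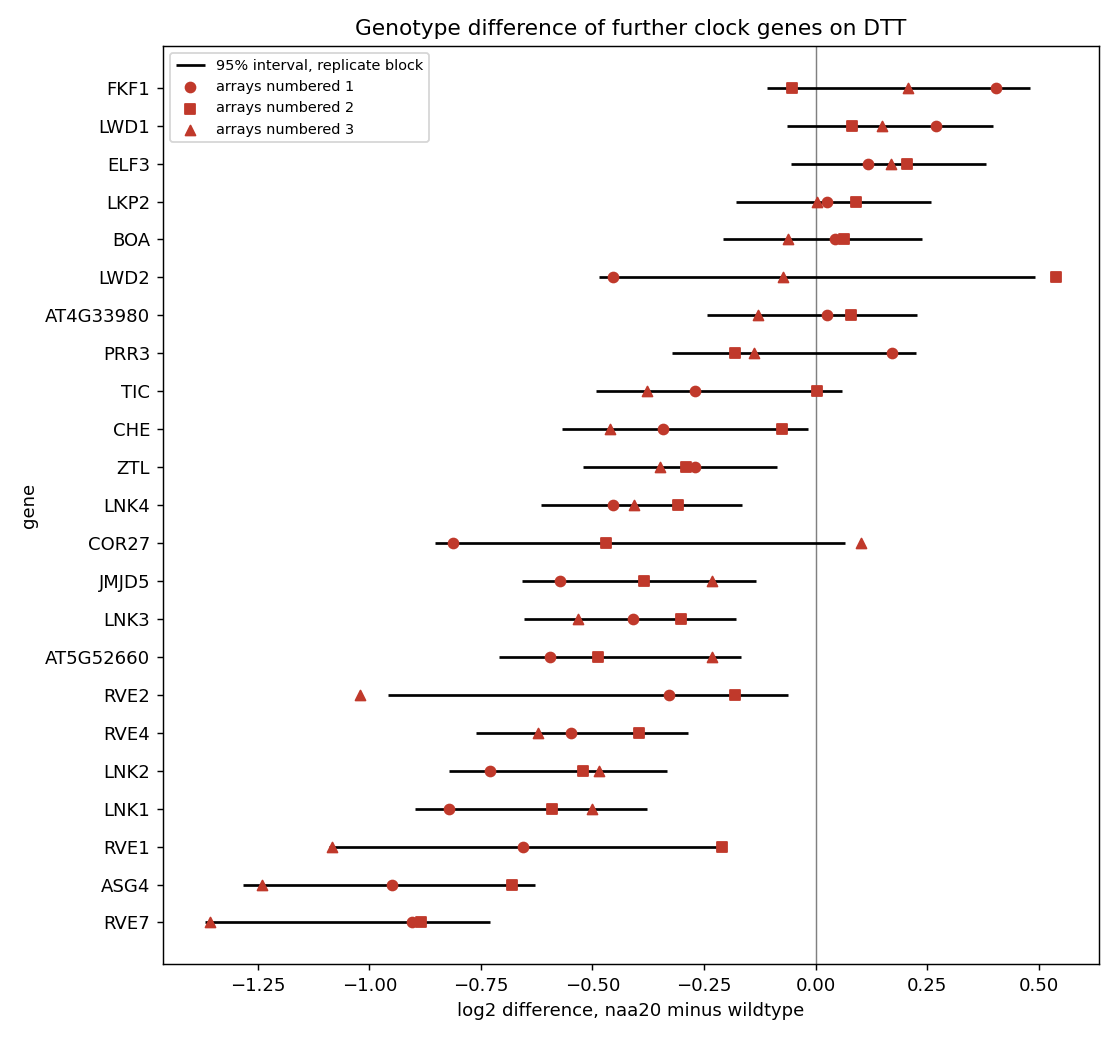
Log2 difference between *naa20* and wildtype of 23 further clock genes, ordered by the mean difference, with red symbols for arrays of equal number and black bars for the 95% interval of the fit with the replicate block. From *FKF1* at 0.19 to *RVE7* at -1.05, the *LNK* and *RVE* genes lie left of 0 at all 3 numbers.

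The third arrays also stood apart for these further genes, on the same side as *CCA1* for most. As for the 10 core genes, list and comparison were chosen with earlier results of these data known, and no test was made. In 18 of 23 the third array lay outside the others on the same side in both genotypes (33.7% of all probe sets), 15 below and 3 above. An array 3 at least 2-fold lower in both genotypes was seen for 5 of the 23, where it was 0.266% of all probe sets. These were the MYB genes *ASG4* (-3.54 in *naa20* and -3.12 in wildtype), *RVE2* (-3.01 and -2.25), *RVE1* (-2.86 and -2.21) and *RVE7* (-2.36 and -1.90), and the coactivator gene *LNK3* (-1.58 and -1.40). *ASG4* took place 3, *RVE2* place 9 and *RVE1* place 10 among the lower probe sets by the smaller deviation, ahead of *PRR9*. *ASG4* had signals of 9.65, 10.00 and 6.28 in *naa20* and of 10.60, 10.68 and 7.52 in wildtype, the widest spread within a genotype among the clock genes listed (SD 2.05 and 1.80, n = 3). The F-box gene *ZTL* deviated by 0.04 and 0.11.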

How the data were processed

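The deposited values were log2 signals from Affymetrix Arabidopsis Gene 1.0 ST arrays. The authors had made them by RMA with quantile normalization and a custom CDF (version 16, TAIR), which gives 1 value per gene. Whether these 6 arrays were normalized together with others is not stated. The values were used as deposited, without filter. No scanner files were used, and 3 arrays per genotype limit the precision.

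The 3 *naa20* and 3 wildtype arrays were compared in R 4.3.3 by lmFit and eBayes of limma 3.58.1. P-values were adjusted over all 27827 probe sets by Benjamini-Hochberg. A call needed at least 2-fold and an adjusted p under 0.05. The fit was tested on simulated data with large changes and with noise independent between arrays. That setting lacks the shared deviations of the third arrays and does not cover differences as small as those of the clock genes. Alternatives were the replicate number as a block, ordinary variance per gene, median centring, trend and robust moderation, a repeated quantile normalization, omission of the lowest 25% of mean signals, array weights and omission of each array in turn. The block fit treated arrays of equal number as pairs, which no label states. Deviations from the genotype means correlated across genes by over 0.1 for every number (0.176, 0.190 and 0.385 for numbers 1, 2 and 3). Crossing numbers 1 and 2 gave 0.174 and 0.145, also over 0.1, so this limit cannot tell numbers 1 and 2 apart. Deviations cancel within a genotype, so likeness of the third arrays by itself raises the values among numbers 1 and 2. The third arrays had -0.287 to -0.239 with the others. The labels do not say that pools were grown apart, so p-values measure the spread between these arrays, which may be technical.

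Named are all 10 members, *NAA20*, the highest, lowest and called genes of each further list, and the 5 nearest profiles to *CCA1* and to *GI*; others were named after their values were seen. Members and lists were chosen with earlier results of these data known. Names came from a RefSeq table (TAIR10.1), and genes without a listed symbol keep their locus. *CCA1* and *LHY* resemble each other in sequence, and cross-hybridization was not examined. Promoter and protein sequences were not analysed here. Python 3.11.15 with matplotlib 3.10.9 drew the figures.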

Additional observations from a re-analysis of the deposited data

Results flagged for a closer look

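AT4G33980 was the only gene among the 10 core and 23 further clock genes with the third array outside the other 2 arrays in opposite directions in the genotypes. The third array was 0.06 lower than the mean of the others in *naa20* (-0.06) and 0.12 higher in wildtype, a gap of -0.18 on the log2 scale. Its signals lay near the lower end of the array, and the gap was not tested.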

How the results depend on the processing

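No core clock gene was past both limits under any alternative run, including each array left out in turn (0 to 0 genes), and the count rose to 2 at any fold and to 4 at any fold with the replicate block, chosen after the data were seen. Of the 23 further genes 1 passed with the replicate block, 3 at any fold and 11 at any fold with the block, and 0 to 0 with single arrays left out. Over all probe sets the count was 2760 (9.92%), between 2586 and 2897 with single arrays left out, and 9447 (33.9%) at any fold. With the replicate block it was 2809, and 9829 (35.3%) at any fold. Of 138 alternative values for the 10 genes 108 kept direction and side of an adjusted p of 0.05, 9 crossed to under it, 12 crossed to above it and 9 changed sign. The changes of sign came with single arrays left out. *RVE8* ran from -0.59 to 0.0332 (the latter without the third *naa20* array), *PRR9* from -0.72 to 0.58, *PRR7* from -0.26 to 0.12 and *GI* from -0.62 to 0.27. *SHR*, a root marker, ran from -0.12 to 0.15 with single arrays left out, and was -0.0402 with array weights and -0.10 without the third arrays. *ELF4* and *LUX* fell to the filter on low signals and had no value there. Set against a single other array, the deviation of the third array changed sign for *LUX* (0.10 in *naa20* and 0.07 in wildtype, against the second array), *TOC1* (-0.03 and 0.01, against the second), *ELF4* (0.02 in wildtype, against the second) and *PRR5* (0.0029 in wildtype, against the first), and for none of the other genes. A further quantile normalization left every difference as it was. The cause of these changes was not tested.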

Other observations

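Of 12 output genes of the clock, *GBSS1*, which makes starch granule amylose, was past both limits (9.92% of all probe sets were), with a difference of -1.26 and a standard error of 0.25 (adjusted p = 0.00686 from limma). None of the others had an adjusted p under 0.05, which 33.9% of all probe sets had. Its signals were 9.69, 9.63 and 10.49 in *naa20* and 11.04, 11.07 and 11.49 in wildtype, without overlap. With an ordinary variance per gene its adjusted p was 0.0553. The list ranged up to AT1G69570 with 1.27 (adjusted p = 0.0954 from limma, 0.0204 with the replicate block, and 0.00118 with a difference of 1.91 without the third *naa20* array), whose signals of 6.69, 6.48 and 4.68 in *naa20* stood against 4.83, 4.91 and 4.29 in wildtype. With the block 6 of the 12 passed at any fold, 2 higher and 4 lower, against 35.3% of all probe sets. *CDF1*, a repressor of the flowering gene *CO*, was 1 of 12 for which the third array was at least 2-fold lower in both genotypes, by -2.02 (*naa20*) and -1.50 (wildtype), as it was for 0.266% of all probe sets.

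Of the 7 phytochrome and cryptochrome genes, *PHYD* alone had an adjusted p under 0.05 (33.9% of all probe sets did), at 0.65 ± 0.09 (adjusted p = 0.0016 from limma; standard error given), and *PHYC* was lowest with -0.26. Of 6 dark-inducible genes 4 passed at any fold (33.9% of all probe sets) and went both ways, from *DIN2*, a beta-glucosidase gene, with 2.24 (adjusted p = 0.000395 from limma) to *DIN6*, an asparagine synthetase gene, with -1.07 (adjusted p = 0.000338 from limma).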
